A study of Mus musculus with 4 samples.

Results

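Neurod1, Evx1 and Gata3 are transcription factor genes that are used at the start of different lineages, and all 3 had lower transcript levels in mouse embryonic stem cells treated with CID755673. They were taken by their symbols from the authors' deposited table, as 3 of its 1593 genes. Their values in that table were known when they were chosen, and the table itself holds only genes with an absolute log2 difference of at least 1 between the groups and a p-value of at most 0.0498. Their levels and differences are therefore given as a description, with no test.

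The cells were 46C, a line of mouse embryonic stem cells with a Sox1 reporter of green fluorescence. In the PC group CID755673, which inhibits protein kinase D, was given together with the MEK inhibitor PD0325901 at 1 µM, for 24 h of culture in serum. The labels give no dose for CID755673. The PD group had 1 µM PD0325901 in serum for the same time without CID755673, so MEK was inhibited in both groups. Each group had 2 RNA sequencing libraries, and no label says whether they came from separate cultures, and p-values therefore reflect library spread that may be technical.

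Neurod1 is a basic helix-loop-helix factor that pairs with E proteins, binds E-box sequences, and drives neuronal and pancreatic endocrine differentiation. Evx1 is a homeodomain factor of the primitive streak and, later, of spinal interneurons, and its gene lies next to the HoxA cluster. Gata3 is a zinc finger factor that binds GATA sequences and acts in trophectoderm and in T helper cells. None of them belongs to the core network that keeps embryonic stem cells pluripotent.

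All 3 genes matched 1 entry each among RefSeq's promoters on GRCm38.p6, and the bases before each start site are shown because the genes were lower together and these windows differ in composition. The Neurod1 window is limited to 135 bases, since the remaining 115 of 250 lie in an exon of the gene in GENCODE M21. Over the full 250 bases each window also overlaps exons of another gene, Cerkl for Neurod1, Evx1os for Evx1 and Gm13256 for Gata3. Sequences run 5′ to 3′ on the gene's strand, in lower case, with capitals for E-boxes (CANNTG) and GC boxes (GGGCGG) on either strand. The Neurod1 window is chr2:79456752-79456886 on the minus strand, the Evx1 window is chr6:52313248-52313497 on the plus strand, and the Gata3 window is chr2:9878601-9878850 on the minus strand.
Neurod1: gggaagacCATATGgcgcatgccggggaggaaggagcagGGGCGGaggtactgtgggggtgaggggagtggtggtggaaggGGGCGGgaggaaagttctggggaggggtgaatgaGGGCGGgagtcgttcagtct
Evx1: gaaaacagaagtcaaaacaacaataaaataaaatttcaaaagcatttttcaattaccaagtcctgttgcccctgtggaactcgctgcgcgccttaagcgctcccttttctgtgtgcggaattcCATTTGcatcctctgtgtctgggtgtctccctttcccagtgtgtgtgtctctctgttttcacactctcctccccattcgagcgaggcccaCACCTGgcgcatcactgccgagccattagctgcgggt
Gata3: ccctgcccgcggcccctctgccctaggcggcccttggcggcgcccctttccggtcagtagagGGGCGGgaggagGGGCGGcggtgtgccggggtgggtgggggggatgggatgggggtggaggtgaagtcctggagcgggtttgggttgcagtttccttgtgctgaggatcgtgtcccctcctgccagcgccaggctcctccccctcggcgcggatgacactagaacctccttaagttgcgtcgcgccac

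Over the full 250 bases the Neurod1 window held 67.6% G and C, the Evx1 window 49.6% and the Gata3 window 70%, against a median of 52.4% over 32851 mouse promoters of this length. The GC box stood 4 times in the full Neurod1 window, 1 of them past the bases shown, 2 times in the Gata3 window and 0 times in the Evx1 window, and 32.74% of all windows held at least 1. The E-box, the kind of site that Neurod1 binds, stood 1 time for Neurod1, 2 times for Evx1 and 0 times for Gata3, and 66.22% of all windows held one. Neither GATA preceded by A or T and followed by A or G, present in 26.54% of all windows, nor the homeodomain core TAATTA, present in 4.84%, was found in any of the 3 windows on either strand. The motifs do not overlap each other in these windows, and each match is a description of letters only.

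Values of single libraries below are normalized reads, that is reads divided by the authors' size factor for the library. The reads on the 1593 listed genes were 601713 and 433684 in PC replicates 1 and 2, and 632042 and 683777 in PD replicates 1 and 2. As sums over selected genes they are not library depths, which are unknown. Of 15 embryonic stem cell markers, Utf1, Lin28a and Dnmt3l were listed, with summed values of 8211.1 and 7975.1 normalized reads in the PC libraries against 23343 and 24382 in the PD libraries; the remaining markers are not analysed here.

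Neurod1 (ENSMUSG00000034701) had 274.2 and 270.04 normalized reads in PC replicates 1 and 2, against 1054 and 1143 in PD replicates 1 and 2. Both PC libraries lay far below both PD libraries, and the groups did not overlap. The group values were 272.1 ± 3.0 in PC and 1098.5 ± 62.8 in PD (SD, n = 2 each), so the PC level was 24.8% of the PD level. On the log2(value + 1) scale the difference, PC minus PD, was -2.01. The counts behind these values were 331 and 227 reads in PC and 1087 and 1247 reads in PD. Counting error alone gave exact Poisson 95% intervals of 245.5 to 305.4 and 236.1 to 307.5 normalized reads in PC, against 992.3 to 1119 and 1080 to 1208 in PD. Of all listed genes, 257 had a difference at least as low as that of Neurod1.

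Evx1 (ENSMUSG00000005503) had 0 reads in both PC libraries, against 26 and 36 reads in PD replicates 1 and 2. It was detected in both PD libraries and in neither PC library. The PD reads correspond to 25.2 and 33.0 normalized reads, a mean of 29.1 ± 5.5 (SD, n = 2). A count of 0 allows up to 3 reads, or 2.49 and 3.57 normalized reads in PC replicates 1 and 2. The PD mean of Evx1 was 9.61-fold the mean PC floor of 3.03 normalized reads, which leaves out the counting error of the PD reads. These floors, like the Poisson intervals, cover counting error only. The table held 60 genes at 0 reads in both PC libraries, with a median PD mean of 11.3 normalized reads, and Evx1 had the 6th highest PD mean among them. Its low count limits what can be said: a remaining level near the floor was not detectable at this depth.

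Gata3 (ENSMUSG00000015619) had 194.7 and 133.2 normalized reads in PC replicates 1 and 2, against 380.1 and 384.0 in PD replicates 1 and 2. The PD libraries were nearly equal, the PC libraries were lower and stood apart from each other, and the groups did not overlap. The group values were 164.0 ± 43.5 in PC and 382.1 ± 2.8 in PD (SD, n = 2 each), so the PC level was 42.9% of the PD level. The difference was -1.24 on the log2 scale, close to the table's limit of 1. It was -1.51 without PC replicate 1 and -0.97 without PC replicate 2. The exact Poisson 95% intervals of the PC libraries, 170.6 to 221.2 from 235 reads and 109.7 to 160.3 from 112 reads, did not meet, so these 2 libraries differed by more than counting error.

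**Figure D1:**
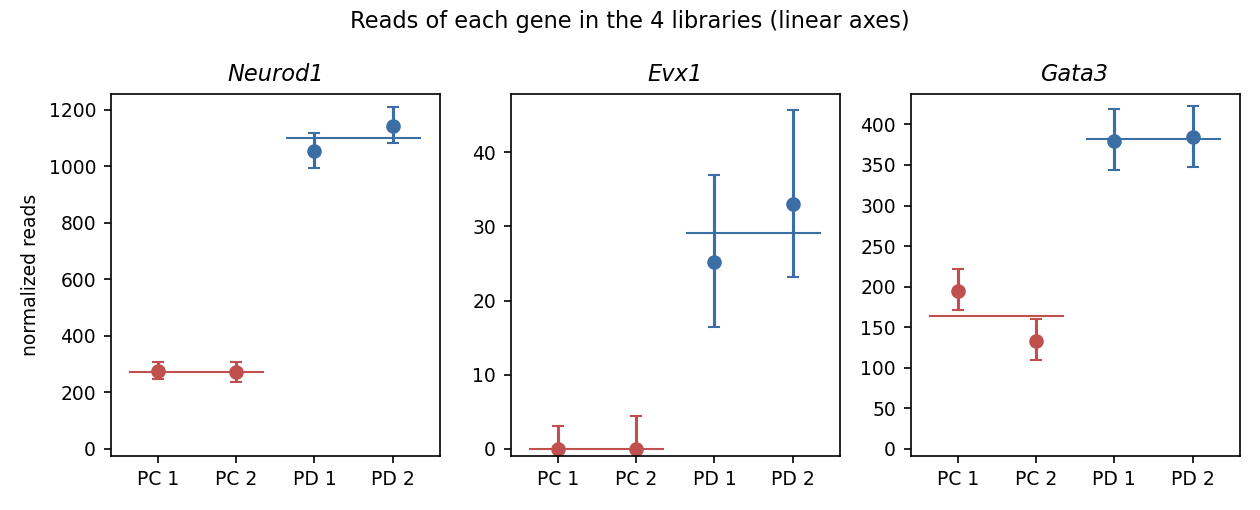
Normalized reads (linear vertical axes) of Neurod1, Evx1 and Gata3 in PC libraries 1 and 2 (red) and PD libraries 1 and 2 (blue); points are libraries, bars are exact Poisson 95% intervals and lines are group means. Both PC libraries lie below both PD libraries in each panel, Evx1 is at 0 in PC, and Gata3 shows 194.7 and 133.2 in PC.

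The 3 genes differed among themselves in how closely the libraries of a group matched. The PC libraries were 0.02 apart on the log2 scale for Neurod1, against a median gap of 0.12 over the 187 listed genes within 2-fold of its mean level, and 165 of these had a gap at least as large. For Gata3 the PC gap was 0.54, against a median of 0.19 over 297 such genes, and 29 of these had a gap at least as large. The order was turned round in PD, where the Gata3 gap was 0.01 with 283 of 297 genes at or above it, and the Neurod1 gap was 0.12 with 114 of 187 at or above it. The PD gap of Evx1 was 0.38, near the median of 0.41 over 403 genes of its level.

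**Figure D2:**
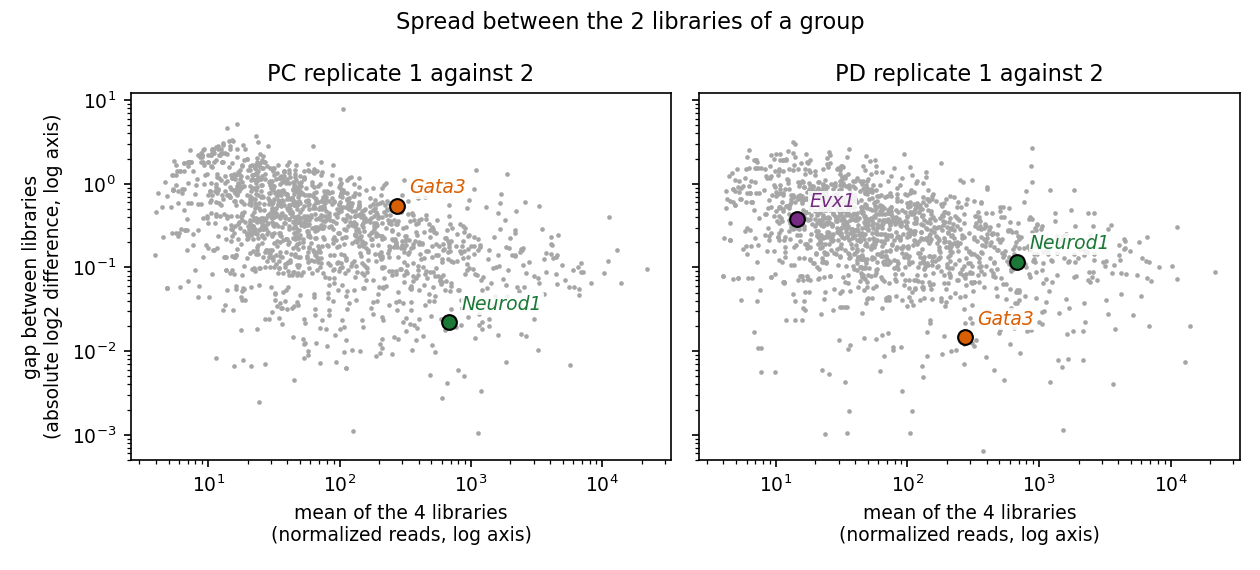
Gap between replicates 1 and 2 (absolute log2 difference, log axis) against the mean of the 4 libraries (normalized reads, log axis) for the listed genes, in PC (left) and PD (right); genes with equal values in both libraries, such as Evx1 in PC, are not drawn. Gata3 lies high among genes of its level in PC, at 0.54, and low in PD, at 0.01, while Neurod1 lies low in PC, at 0.02.

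Levels of different genes can be set side by side only per length, for which the merged exon lengths of GENCODE M21 were used (2729 bases for Neurod1, 2877 for Evx1 and 3978 for Gata3). Per kilobase of exon, Neurod1 had 99.7 ± 1.1 normalized reads in PC and 402.5 ± 23.0 in PD. Gata3 had 41.2 ± 10.9 per kilobase in PC and 96.0 ± 0.7 in PD, and Evx1 had 0 in both PC libraries and 10.1 ± 1.9 in PD. The order Neurod1, Gata3, Evx1 was thus the same in both groups, and no library of one gene overlapped with a library of the next in that order within a group. The annotation may differ from the one used for counting, so these per-length levels are approximate.

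Parts of each gene's exons are shared with other annotated genes, and nothing in the labels says whether the counting used strand. The antisense gene Evx1os covers 73 exon bases of Evx1, which is 2.54% of its exon length. Exons of Cerkl on the same strand cover 7.37% of the Neurod1 exon length and the long noncoding RNA gene Gm26755 on the other strand covers 5.64%. For Gata3 the antisense gene Gm13256 covers 3.9% and 9230102O04Rik on the same strand covers 1.94%. None of these 5 neighbours is in the table, and reads in the shared bases cannot be assigned to one gene with certainty.

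Among the 1593 listed genes, limma called 495 (31.1%) at a Benjamini-Hochberg adjusted p under 0.05, and 316 of these (19.8% of those listed) were lower in PC. The number of tests was set at 31432, which is the false discovery rate divided by the p-value for the smallest deposited p-value. That step takes the authors' rates to be Benjamini-Hochberg rates, which no label states. The PC and PD libraries did not overlap for 99.7% of the listed genes, so the lack of overlap seen for the 3 genes is the rule in this table. Because the contrast chose the genes, nothing is read from these shares, and no call is given for the 3 genes. In the authors' deposited table the log2 fold changes were -2.01 for Neurod1, -4.90 for Evx1 and -1.24 for Gata3, with false discovery rates of 2.99e-52, 6.75e-05 and 1.54e-06. These rates belong to the contrast that chose the genes, so they are no support for the 3 differences. The fitted value for Evx1 depends on the added count of 1 and is no measure of size.

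**Figure D3:**
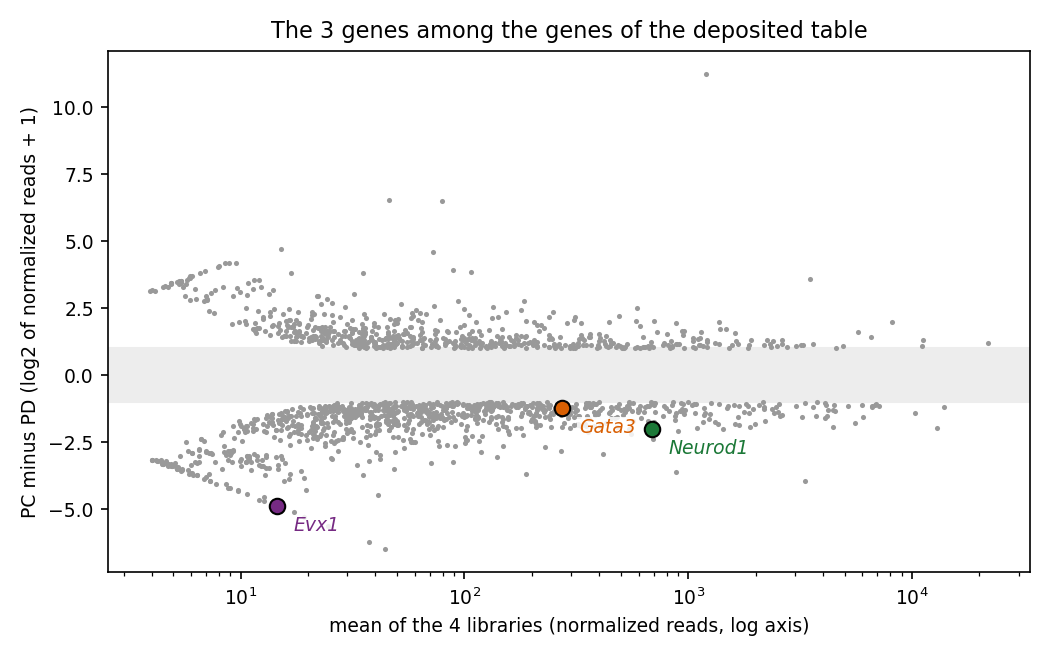
Difference PC minus PD (log2 of normalized reads + 1) against the mean of the 4 libraries (normalized reads, log axis) for the 1593 listed genes in grey, with Neurod1, Evx1 and Gata3 marked; the shaded band between -1 and 1 holds no listed gene. Neurod1 at -2.01 lies among well-counted genes, Gata3 at -1.24 lies near the band, and Evx1 lies on the lower edge formed by genes at 0 in PC.

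The genes around Neurod1 went in both directions. Of 30 other neural basic helix-loop-helix factors and their regulators, 4 were listed, 2 higher and 2 lower in PC. Their median log2 difference was -0.06, against -1.17 over all listed genes. No listed gene lies between -1 and 1, so this median is only the midpoint of genes with opposite signs. limma at a Benjamini-Hochberg adjusted p under 0.05 called 1 in each direction, beside 11.2% of listed genes called higher and 19.8% called lower. The same shares stand beside the counts of each list below. Id2, which holds basic helix-loop-helix factors away from DNA by binding their partners, rose to 4320 and 4549 normalized reads in the PC libraries, against 2143 and 1971 in the PD libraries (log2 difference 1.11, SE 0.09, limma, Benjamini-Hochberg adjusted p = 0.014). Hey2, a repressor downstream of Notch, fell to 43.9 and 41.6 in PC, against 146.4 and 132.0 in PD (-1.68, SE 0.21, limma, Benjamini-Hochberg adjusted p = 0.034). Of the other family members, Atoh1, a proneural factor of hair cells and cerebellum, was at 13.3 and 10.7 in the PC libraries and 28.1 and 30.2 in the PD libraries, and Atoh8 was at 31.3 ± 3.8 in PC and 8.6 ± 5.7 in PD, and neither passed. Neurod2, Neurod4, Neurod6 and the Neurog genes are not analysed here.

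Of 17 Notch pathway genes, which restrain proneural factors, Jag1 was listed. This Notch ligand fell to 727.4 and 641.2 normalized reads in the PC libraries, against 1414 and 1443 in the PD libraries (log2 difference -1.06, SE 0.11, limma, Benjamini-Hochberg adjusted p = 0.018).

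Of 31 neuronal and neuroendocrine genes 5 were listed, 1 higher and 4 lower, with a median log2 difference of -1.39, both as fitted and with genes at 0 set at their bound. limma at a Benjamini-Hochberg adjusted p under 0.05 called 1 higher and 1 lower. Rfx6, a winged-helix factor of pancreatic endocrine cells, was at 0 reads in both PC libraries against 11 reads in each PD library. It passed (limma, Benjamini-Hochberg adjusted p = 0.015). The PD mean of Rfx6 was 3.43-fold the mean PC floor, which leaves out the counting error of the PD reads. Insm1, an endocrine and neuronal factor whose gene is a known target of Neurod1, was at 21.8 ± 9.0 in PC and 70.1 ± 4.5 in PD, which missed the threshold (limma, Benjamini-Hochberg adjusted p = 0.22). Nkx2-2, a homeodomain factor of endocrine cells and ventral neural tube, was at 16.4 ± 1.4 in PC and 44.7 ± 5.5 in PD and did not pass. Nefm, a neurofilament subunit, was at 27.8 ± 7.7 in PC and 62.4 ± 9.2 in PD and did not pass. Stmn3, a regulator of microtubules in neurons, went the other way and rose to 546.0 and 623.4 normalized reads in PC, against 250.2 and 274.0 in PD (1.15, SE 0.13, limma, Benjamini-Hochberg adjusted p = 0.024). Of 10 neuron markers and 6 neural progenitor markers 0 were listed, so their part in the Neurod1 difference was not tested. In bulk samples such as these, fewer cells of a type and less RNA per cell cannot be told apart.

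Most listed genes of the primitive streak and mesoderm had the opposite sign to Evx1. Of 30 others 6 were listed, 5 higher and 1 lower in PC, with a median log2 difference of 1.46, and limma at a Benjamini-Hochberg adjusted p under 0.05 called 1 of them, as higher. Cdx1, a caudal-type homeobox gene of the posterior embryo, rose to 377.8 and 455.6 normalized reads in PC, against 78.5 and 83.4 in PD (2.34, SE 0.16, limma, Benjamini-Hochberg adjusted p = 0.013). The 4 other genes with higher values did not pass. Of these, Hand2, a factor of heart and limb mesoderm, was at 26.8 ± 0.8 in PC and 6.1 ± 3.1 in PD. The forkhead gene Foxc1 was at 41.4 ± 7.0 in PC and 15.2 ± 7.3 in PD, and its relative Foxc2 at 24.7 ± 2.1 in PC and 8.5 ± 3.0 in PD. The homeobox gene Nkx1-2 was at 178.6 ± 30.0 in PC and 80.4 ± 16.5 in PD. Kdr, a receptor of vascular endothelial growth factor found on early mesoderm, was at 28.3 ± 11.5 in PC and 71.8 ± 12.5 in PD and did not pass. Of 10 mesoderm markers Evx1 and Kdr were listed, with summed values of 36.5 and 20.2 normalized reads in PC against 88.2 and 113.6 in PD, and the part of such cells in the result was not tested.

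The listed HoxA genes, which neighbour Evx1 on the chromosome, had higher values in PC. Of 13 HoxA cluster genes and noncoding neighbours 6 were listed, all higher, with a median log2 difference of 1.51, and limma at a Benjamini-Hochberg adjusted p under 0.05 called 3, Hoxa3 and Hoxa7 among them. Hoxa7 did not pass with a pseudocount of 0.1. Hoxa13, the Hox gene nearest to Evx1, was at 67.9 and 40.4 normalized reads in PC, against 11.6 and 23.8 in PD, and did not pass (log2 difference 1.59, SE 0.49, limma, Benjamini-Hochberg adjusted p = 0.52). Evx1os is not analysed here.

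Gata3 and Gata6 lay on opposite sides. Of 14 other GATA factors and cofactors 2 were listed, 1 higher and 1 lower, so the median log2 difference of 0.02 is only their midpoint. limma at a Benjamini-Hochberg adjusted p under 0.05 called 1, as higher. Gata6, the GATA factor of primitive endoderm, rose to 380.3 and 467.5 normalized reads in PC, against 193.0 and 184.2 in PD (1.16, SE 0.15, limma, Benjamini-Hochberg adjusted p = 0.04). Like Hoxa7, it did not pass with a pseudocount of 0.1. Of 10 markers of extra-embryonic endoderm, Gata6 and Sox17 were listed, both with higher values in PC. Their summed values were 466.4 and 511.5 normalized reads in PC against 221.1 and 209.9 in PD, and Gata6 made up most of each sum. Sox17 did not pass (log2 difference 1.17, limma, Benjamini-Hochberg adjusted p = 0.74). Of 10 markers of feeder fibroblasts the collagen gene Col3a1 was listed, at 38.9 and 48.8 in PC against 89.2 and 113.6 in PD, and it did not pass. The part of such cells in these results was not tested. Lmo1, a LIM-domain adaptor of transcription complexes, was at 44.0 ± 3.4 in PC and 97.3 ± 11.9 in PD and did not pass. Of 24 other trophectoderm and trophoblast genes Gcm1, the factor of syncytiotrophoblast formation, was listed, at 17.0 ± 8.8 in PC and 40.7 ± 15.0 in PD, and it did not pass. Gata3 was the 1 listed gene of 10 trophoblast markers. Cdx2, Eomes, Elf5 and Tfap2c are not analysed here, and the part of trophoblast-like cells in the Gata3 difference was not tested.

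Of 36 genes of the BMP, Nodal and Wnt pathways, which act on Evx1 and Gata3 in the embryo, 6 were listed, 1 higher and 5 lower, with a median log2 difference of -1.48. limma at a Benjamini-Hochberg adjusted p under 0.05 called Id2 as higher and the Nodal antagonists Lefty1 and Lefty2 as lower. Lefty1 was at 5653 ± 236 normalized reads in PC and 14986 ± 760 in PD, and Lefty2 at 5297 ± 415 in PC and 20546 ± 75 in PD. The Wnt effector Lef1, the ligand Wnt5a and the antagonist Dkk1 had lower values in PC and did not pass, with log2 differences of -1.26, -1.56 and -1.84. Lef1 passed with voom on the recovered reads. The PD libraries of Wnt5a stood far apart, at 294.8 and 127.4 normalized reads.

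**Figure D4:**
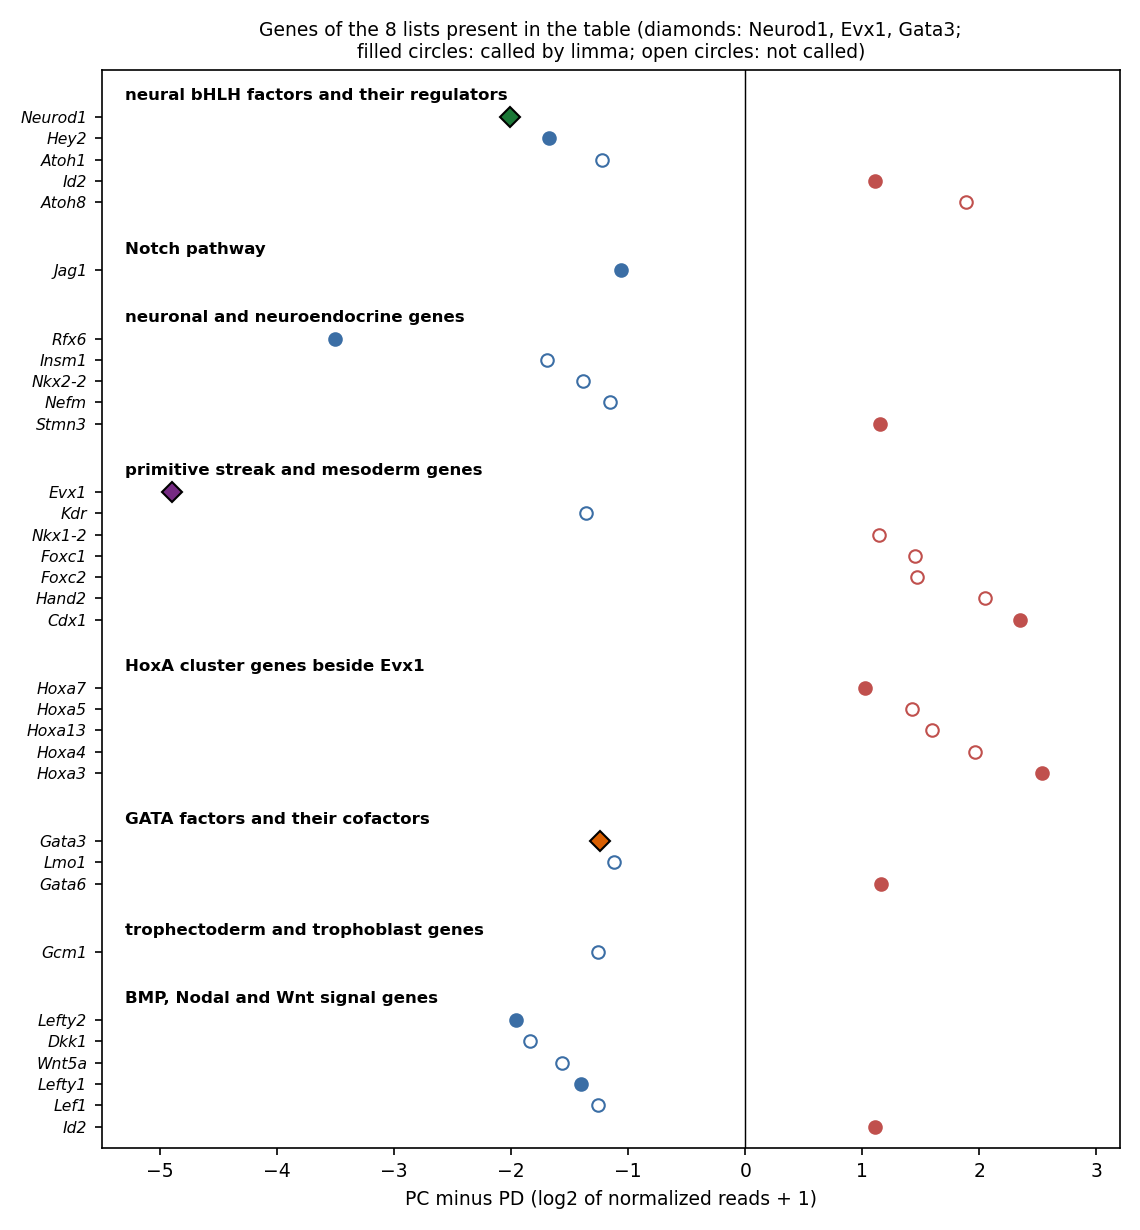
Difference PC minus PD (log2 of normalized reads + 1, horizontal axis) of the list genes present in the table, grouped by list, with 1 gene not drawn; diamonds are Neurod1, Evx1 and Gata3, filled circles were called by limma and open circles were not, red is higher and blue lower in PC. The HoxA genes drawn all lie to the right of 0 while Evx1 lies at -4.90, and Gata6 at 1.16 lies opposite Gata3 at -1.24.

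Over the 8 lists together, 30 genes other than the 3 were listed, 15 higher and 15 lower, and 12 were called, 7 higher and 5 lower. Of all listed genes 31.1% were called, 11.2% as higher and 19.8% as lower, and nothing is read from the counts of the lists. The 12 calls rested on all 4 libraries, and most were lost when 1 library was left out. In those fits the spread came only from the group left whole. Rfx6, at 0 reads in both PC libraries, has no spread in PC, so its call without a PD library is no sign of a firmer result. voom on the recovered reads of all 4 libraries called 13, that is the 12 and Lef1. Exons of 11 of the 30 share bases with another annotated gene, among them Hoxa3, Hoxa7, Gata6, Hand2, Nefm, Nkx2-2 and Lef1, so that the origin of some of their reads is uncertain.

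The genes whose pattern over the 4 libraries was most like each of the 3 were found among 1451 other listed genes with a mean of at least 10 normalized reads, by the root mean square difference of log2(value + 1) after centring each gene on its own mean. For Neurod1 they were the zinc finger gene Zfp750 (0.03), the p53 relative Trp73 (0.04) and the 2-cell-stage gene Zscan4a (0.05). Zfp750 had 447.4 and 435.4 normalized reads in PC, against 1724 and 1761 in PD. For Gata3 they were the cadherin gene Fat2 (0.05) and the transporter genes Slc6a13 (0.05) and Slc9b2 (0.05), which shared its higher value in PC replicate 1. Fat2 had 655.3 and 460.4 normalized reads in PC, against 1361 and 1257 in PD. For Evx1 they were Gm7995 (0.12), AC160980.2 (0.19) and Gm2174 (0.26), all at 0 reads in both PC libraries. Gm7995 had 20.4 and 30.2 normalized reads in the PD libraries. Zscan4a belongs to a family of near-identical genes that can share reads, and 97.8% of the exon length of Gm2174 overlaps a pseudogene on the other strand, so both are uncertain.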

How the data were processed

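RNA from 2 PC and 2 PD samples was sequenced. Bowtie 0.12.2 and the build mm9 are named, without a role, in the submitters' processing notes. No source used here gives the counting tool, the annotation, the strand setting or the authors' test. The deposited library values are log2 of reads divided by 1 size factor per library, plus 1, as found from the values: with the log undone, 100% were whole multiples of 1 step per library, within 0.001 reads. Recovered size factors were 1.207 and 0.8406 for PC replicates 1 and 2, and 1.0313 and 1.0911 for PD. The deposited p-values and false discovery rates are the authors' own, per the file headers.

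From these, log2(value + 1) of all listed genes with a mean of at least 1 was modelled in limma 3.58.1 (R 4.3.3), with a trended prior and no block. Benjamini-Hochberg adjustment took unlisted genes as having larger p-values, and the call threshold was an adjusted p of 0.05. Counts over lists include 1 called gene that is not reported here by name. The spread came only from genes selected on these samples. The 3 genes, the lists and the naming rule (all list genes present in the table, and the 3 nearest patterns per gene) were chosen with earlier results of these data known. Same-numbered samples did not deviate together (r = -5.75e-05 across 1593 genes). Alternatives were the pseudocount, filter, size factors, prior, threshold, voom, a replicate block and leaving out each library.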

Additional observations from a re-analysis of the deposited data

How the results depend on the processing

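The log2 differences of Neurod1 and Gata3 stayed within their replicate spread with other pseudocounts and without size factors. With 1 library left out they were between -2.07 and -1.95 and between -1.51 and -0.97. Such a shift is always smaller than the replicate spread, so staying within it is no test here. The log2 difference of Evx1 was -8.18 with a pseudocount of 0.1 and -2.76 with 5, since 1 group is at 0. It was between -5.09 and -4.71 with 1 library left out. Of the listed genes, limma called 495, and 12 among the lists. Counts were 64 and 1 from reads without size factors, 2 and 0 at an adjusted p under 0.01, 1 and 0 in limma without a trended prior (28 of 30 list genes at an unadjusted p under 0.05), and 1176 and 23 with a replicate block, which leaves 1 residual degree of freedom and is not backed by a stated pairing. With 1 library left out they ran from 33 to 61 and from 0 to 1; a lone sample is then assumed to vary like the other group. Without a PC library all of these calls were higher in PC, and without a PD library nearly all were lower. Genes at 0 in both libraries of the group left whole have no spread there. The table held 34 such genes for PD and 60 for PC, so these counts are no measure of stability. Over the 8 alternatives that change the differences, no list gene changed direction in 240 refits, while calls were lost in many of them. The selection of the listed genes made the kept direction nearly certain, since PC and PD libraries did not overlap for 99.7% of them. It is therefore no sign of stability. Low counts limit Evx1 and Rfx6, and the full depth is unknown.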

Other observations

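In the annotation that the authors deposited with the table, the terms shared by Neurod1, Evx1 and Gata3 include cell fate commitment and sequence-specific DNA binding. This grouping was looked up after the values were seen and has no test. Of the 43 listed genes with the first term 20 were higher and 23 lower in PC, with a median log2 difference of -1.08. Of the 95 with the second term 49 were higher and 46 lower, with a median of 1.04. No listed gene lies between -1 and 1, so a small change in the balance of directions moves a median across that gap. The medians of these terms are therefore not read as opposite shifts. Over all 1593 listed genes 613 were higher and 980 lower, with a median of -1.17.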
